A study of Mus musculus with 7 samples.

Results

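The phase II conjugation enzymes of mouse were described across 7 tissues. They comprise the UDP-glucuronosyltransferases (UGTs), the cytosolic sulfotransferases (SULTs) and glutathione S-transferases (GSTs) of 6 classes. Members were all gene names of the deposited table with the form of a Ugt, a Sult or an alpha, kappa, mu, omega, pi or theta class Gst symbol, whatever their level. The zeta-class GST gene Gstz1 is outside this rule and in none of the GST sums. This gave 62 of 50226 names, namely 21 UGT, 20 SULT and 21 GST genes. None of their loci carried a failed or low-data status. Because several genes can share a locus in the table, the 62 names fell on 52 distinct loci, 13 for UGTs, 20 for SULTs and 19 for GSTs.

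Conjugation makes lipophilic compounds more soluble for excretion in bile or urine. UGTs transfer a sugar, in most cases glucuronic acid from UDP-glucuronic acid, to drugs, bilirubin, bile acids and steroids. SULTs transfer sulfate from the donor PAPS to phenols, catechols, steroids and bile acids. GSTs join glutathione to electrophiles, among them products of lipid peroxidation. Liver and kidney are known as major sites of these reactions, and many GST genes are known targets of NFE2L2, which binds antioxidant response elements together with small MAF proteins such as MAFG.

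Total RNA had been sequenced from liver, kidney, cortex, skeletal muscle and 3 adipose depots, namely interscapular brown (BAT), visceral (VAT) and subcutaneous (SCAT), of wild-type (wt) C57BL/6 mice, C57BL/6N in the study's text, 36 weeks old, on the diet labelled NCD. The study profiled them to ask whether lncRNAs that respond to nutrients are liver-enriched. Each tissue had 1 library, so no value has a replicate error and no difference between tissues could be tested. The sex of the animals, and whether tissues came from the same animal, are not given in the labels. Values are FPKM, fragment numbers scaled to transcript length and library size. No counts are given, depth is unknown, and an exact 0 is stated as listed at 0. In bulk tissue, fewer cells of a type and less RNA per cell cannot be told apart.

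Each library held the markers of its labelled tissue, with these limits. Albumin (Alb) had no usable value in liver, where the other hepatocyte markers Apoa1, Ttr and Serpina1a were at 1717 to 3530 FPKM. In VAT, Alb was at 253 FPKM, Ttr at 30.0, Apoa1 at 17.7 and Serpina1a at 10.3, and the part of liver RNA in the VAT values of liver-enriched members was not tested. Ttr was also at 195 FPKM in cortex and 46.3 in kidney, and Serpina1a at 10.4 in kidney. The brown fat gene Ucp1 was at 10.6 FPKM in kidney, against 6552 in BAT. Elovl3, the other gene listed for brown fat, was at 65.6 FPKM in liver, against 165 in BAT. VAT also held all 3 epididymal markers tested, Crisp1 (1 locus with Crisp3), Lcn5 and Adam7, at 134 to 1386 FPKM. SCAT held 3 of 3 pancreatic acinar markers at 14.5 to 35.9 FPKM and 3 of 3 lymphocyte markers, the highest being Ms4a1 at 50.6 FPKM. In BAT the muscle genes Ckm and Mylpf were at 166 and 81.9 FPKM, against 8592 and 5595 FPKM in muscle. Muscle in turn held the adipocyte genes Adipoq, Plin1 and Lep at 14.1, 7.41 and 3.65 FPKM.

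A locus was called enriched in a tissue when it had at least 1 FPKM there and a value of log2(FPKM + 0.1) at least 2 above each of the other tissues, which is about 4-fold. Of the 52 loci, 38 reached 1 FPKM in some tissue, and 19 of these 38 (50%) were enriched in 1 tissue. Of all 14928 protein-coding names with at least 1 FPKM, 21.4% were enriched. The member shares are over loci and the background shares over names. Counted by name, 19 of 48 members were enriched, 10 in liver and 5 in kidney. Liver took 10 of the 38 loci (26.3%, against 3.39% of protein-coding names). Kidney took 5 (13.2%, against 2.49%). The other tissues together took 4 loci. VAT had 1 (background 1.21%), cortex 1 (8.21%), BAT 1 (0.757%) and muscle 1 (3.38%), and SCAT had 0 (1.93%). These shares describe 1 library per tissue, with no test behind them.

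The families differed in how narrowly they were expressed. For UGT loci, 7 of 12 with at least 1 FPKM were enriched, 5 in liver and 2 in kidney. For SULT loci it was 7 of 9, of which 3 were in liver, 2 in kidney, 1 in VAT and 1 in cortex. For GST loci it was 5 of 17, of which 2 were in liver and 1 each in kidney, BAT and muscle. These are shares of 58.3% for UGTs, 77.8% for SULTs and 29.4% for GSTs. Over protein-coding names the share was 21.4%, and that of the GSTs was the closest to it. The median log2 difference between the highest and the next tissue was 5.15 for UGT loci, 2.90 for SULT loci and 1.36 for GST loci, beside 0.68 over protein-coding names. Of the 3 families, GSTs were also the most widely detected. Between 10 and 16 of 19 GST loci had at least 1 FPKM in each tissue. In cortex, SCAT, BAT and muscle, 1 or 2 of 13 UGT loci did so. The share of protein-coding names at this level in each tissue was not counted, so these counts compare the families only.

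**Figure D1:**
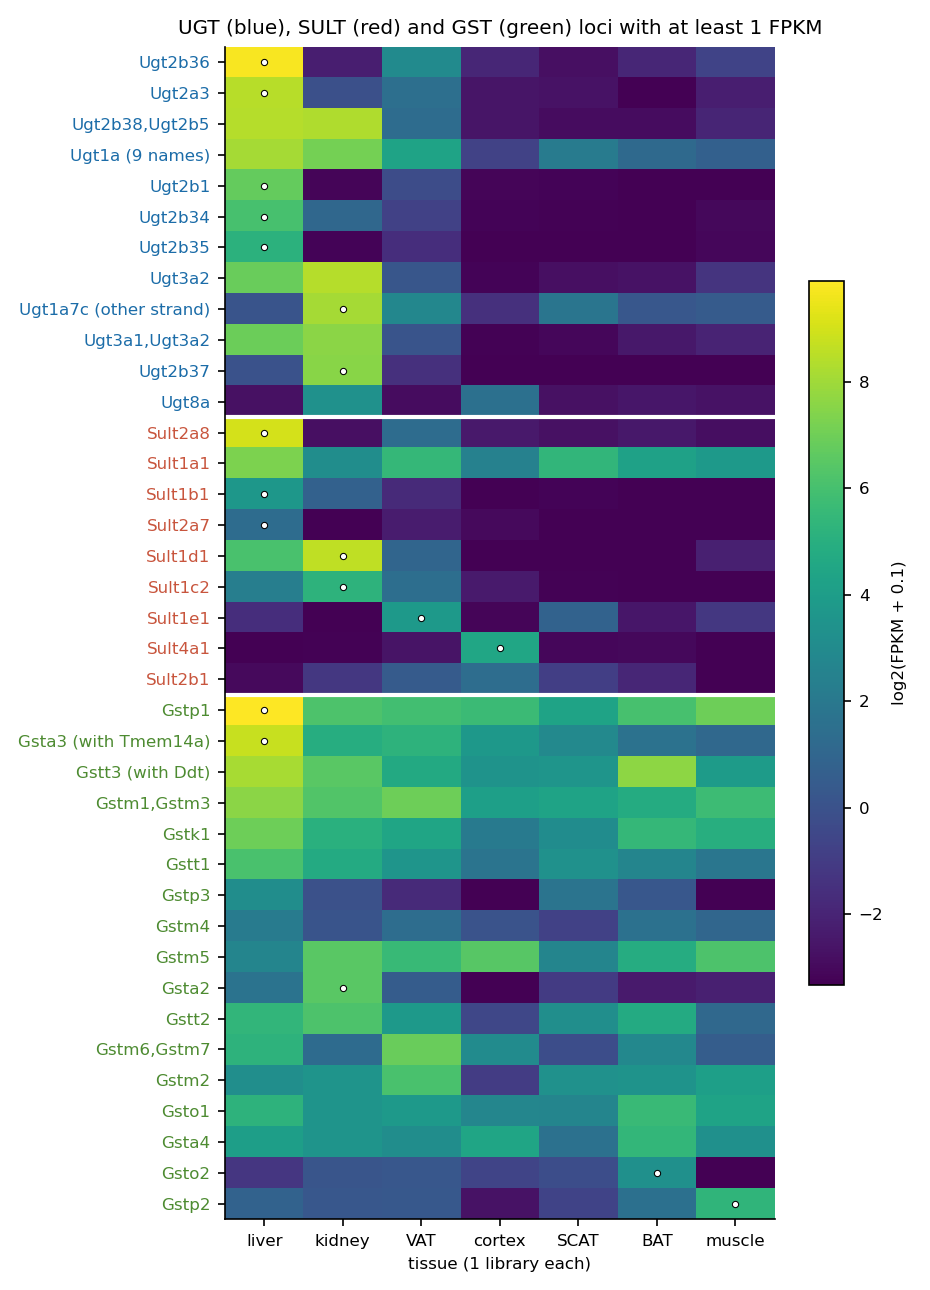
Heat map of the 38 member loci with at least 1 FPKM in some tissue (rows, grouped by family) in 7 tissues (columns, 1 library each); colour gives log2(FPKM + 0.1) and a white dot marks the tissue in which a locus was enriched. At least 1 FPKM was reached in VAT by 6 UGT, 6 SULT and 16 GST rows, and in muscle by 2, 1 and 14.

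Summed over loci, the UGTs reached 2295 FPKM in liver and 1464 FPKM in kidney. The other tissues had UGT sums of 3.98 FPKM in cortex, 4.18 in muscle, 3.70 in BAT, 43.9 in VAT and 8.06 in SCAT. SULT sums were 772 FPKM in liver, 437 in kidney, 31.3 in cortex, 14.5 in muscle, 19.4 in BAT, 66.4 in VAT and 43.3 in SCAT. GST sums were 2223 FPKM in liver, 628 in kidney, 227 in cortex, 396 in muscle, 529 in BAT, 555 in VAT and 119 in SCAT. Liver therefore had the highest sum of each family, by 1.57 times over kidney for UGTs, 1.77 times for SULTs and 3.54 times for GSTs. The UGT sums depended on the locus used. They take in loci on the opposite strand, among them that of Ugt1a7c (279 FPKM in kidney) and that of Ugt3a1 and Ugt3a2 (191 FPKM). Ugt1a7c and Ugt3a2 also enter the sums through loci on the annotated strand. On the annotated strand only, the UGT sums were 1332 FPKM in liver and 912 in kidney, with the GST sum in liver at 2222. Over all loci of a name the UGT sum in liver was 3497 FPKM. The order of UGTs and GSTs in liver thus turned with this choice. Outside liver and kidney the GSTs made up 69.9% to 95.8% of the total over all 3 families. With loci of several names left out, the GST sums fell to 1271 FPKM in liver, 259 in VAT and 292 in BAT.

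In liver, Ugt2b36 gave 38.0% of the UGT sum, Sult2a8 68.4% of the SULT sum and Gstp1 42.5% of the GST sum. In kidney the leaders were others: Ugt3a2 (23.5%), Sult1d1 (89.0%) and Gstm5 (14.6%), with the locus of Gstt3 and Ddt close behind Gstm5 (14.5%). Sult1a1 alone gave 94.1% of the SULT sum in SCAT, 97.6% in BAT and 96.5% in muscle. In cortex Ugt8a gave 72.1% of the UGT sum and Sult4a1 72.6% of the SULT sum. On the annotated strand only, the leading UGT locus in liver was that of Ugt2b38 and Ugt2b5, with 25.5% of the sum. Gstp1 gave 74.3% of the GST sum in liver, and Ugt3a2 39.4% of the UGT sum in kidney, when loci of several names were left out. With FPKM summed over all loci of a name, Ugt2b36 gave 43.5% of the UGT sum in liver, and in cortex Ugt8a gave 82.1% of the UGT sum and Sult4a1 82.1% of the SULT sum. In kidney Ugt2b5, including the loci it shares with Ugt2b38 and with Gm42796, then led the UGTs, with 30.6%. Gstt3, including the locus it shares with Ddt, then led the GSTs in kidney, with 14.3%.

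**Figure D2:**
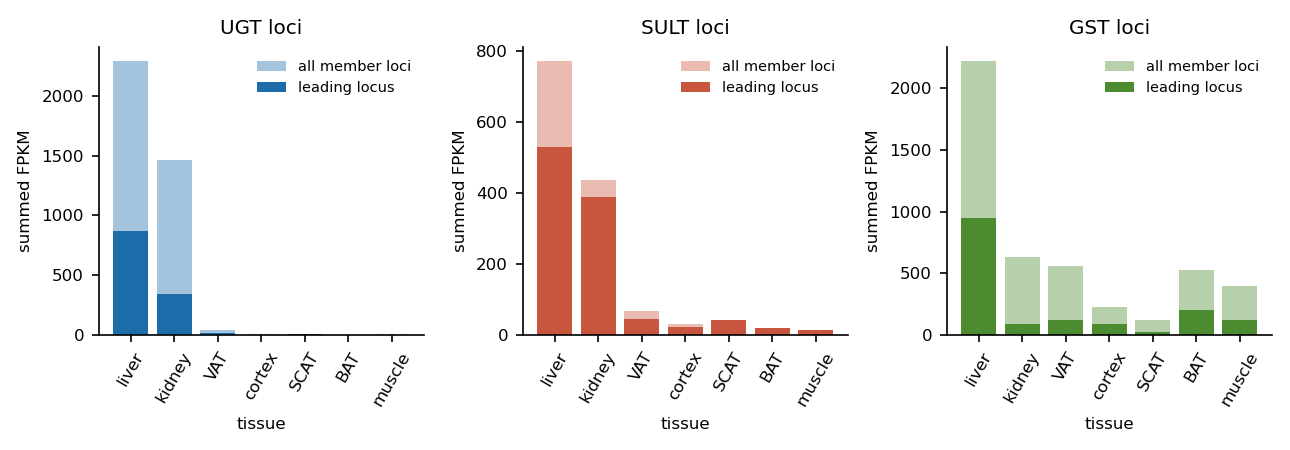
Bars give the FPKM summed over the UGT, SULT and GST loci in each tissue (pale), with the part of the leading locus (dark); axes start at 0 and differ between panels, with 1 library per tissue. UGT bars are tall only in liver (2295 FPKM) and kidney (1464 FPKM), and the kidney SULT bar is almost all Sult1d1.

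The UGT2 genes, which conjugate steroids, bile acids and many drugs, are described first. Ugt2b36 was at 873 FPKM in liver, 0.115 in kidney, 0.168 in cortex, 0.529 in muscle, 0.165 in BAT, 7.77 in VAT and 0.0465 in SCAT. It ranked 52 among 14928 protein-coding names in liver, and its log2 difference to VAT, the next tissue, was 6.79. Ugt2a3 was at 356 FPKM in liver, 0.833 in kidney, 2.68 in VAT and at most 0.118 in the remaining tissues. Both were thus high in liver and under 10 FPKM everywhere else. Ugt2b1 (108 FPKM), Ugt2b34 (66.7 FPKM) and Ugt2b35 (36.2 FPKM) were likewise enriched in liver, with kidney at 0.0120, 2.01 and 0.00953 FPKM. The values of Ugt2b36, Ugt2a3 and Ugt2b35 are those of loci on the strand opposite to the gene. On the annotated strand these genes were at 258, 96.1 and 27.2 FPKM in liver.

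Ugt2b37 showed the opposite pattern. It was at 186 FPKM in kidney, 0.901 in liver and 0.258 in VAT, and was listed at 0 in cortex, SCAT, BAT and muscle. Its log2 difference between kidney and liver was 7.54. These are the values of a locus on the strand opposite to the gene. On the annotated strand Ugt2b37 was at 57.8 FPKM in kidney and 0.857 in liver. Ugt2b38 and Ugt2b5 shared 1 locus in the table, at 339 FPKM in liver, 312 in kidney, 0.0658 in cortex, 0.162 in muscle, 0.0336 in BAT, 2.45 in VAT and 0.0335 in SCAT. Its values cannot be divided between the genes, which the table merges. Of their 101-base windows, 24.1% for Ugt2b38 and 24.6% for Ugt2b5 occur in another gene. Ugt2a1 stayed at 0.102 FPKM or less.

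All of these UGT2 genes lie in 1 group on chromosome 5 (chr5:86889767-87591594, GRCm38), 12 genes over 702 kb that also hold Sult1b1, Sult1d1 and Sult1e1. In chromosomal order the leading tissue changed along the group. The first 4 genes, Ugt2b34, Ugt2b1, Ugt2b35 and Ugt2b36, led in liver. They were followed by the Ugt2b5 gene of the shared locus, by Ugt2b37, which led in kidney, and by Ugt2a3, which led in liver. At the far end stood Sult1b1 in liver, Sult1d1 in kidney and Sult1e1 in VAT. The liver gene Ugt2b36 and the kidney gene Ugt2b37 have Ugt2b5 as the only member between them. The 150 bases upstream of each are shown to compare neighbours with opposite patterns. They are RefSeq promoter sequence (GRCm38.p6), 5′ to 3′ on the gene's strand, up to the first base that the annotation places in an exon. The capitals mark the longest run that both share, 24 bases.
Ugt2b36 (chr5:87092556-87092705, minus strand): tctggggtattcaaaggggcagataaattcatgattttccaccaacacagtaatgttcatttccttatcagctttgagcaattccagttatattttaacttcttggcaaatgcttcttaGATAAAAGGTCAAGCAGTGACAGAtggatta
Ugt2b37 (chr5:87254805-87254954, minus strand): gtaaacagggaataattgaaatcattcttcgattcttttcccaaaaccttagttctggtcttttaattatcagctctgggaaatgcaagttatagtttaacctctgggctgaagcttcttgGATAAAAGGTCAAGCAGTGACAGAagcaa

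**Figure D3:**
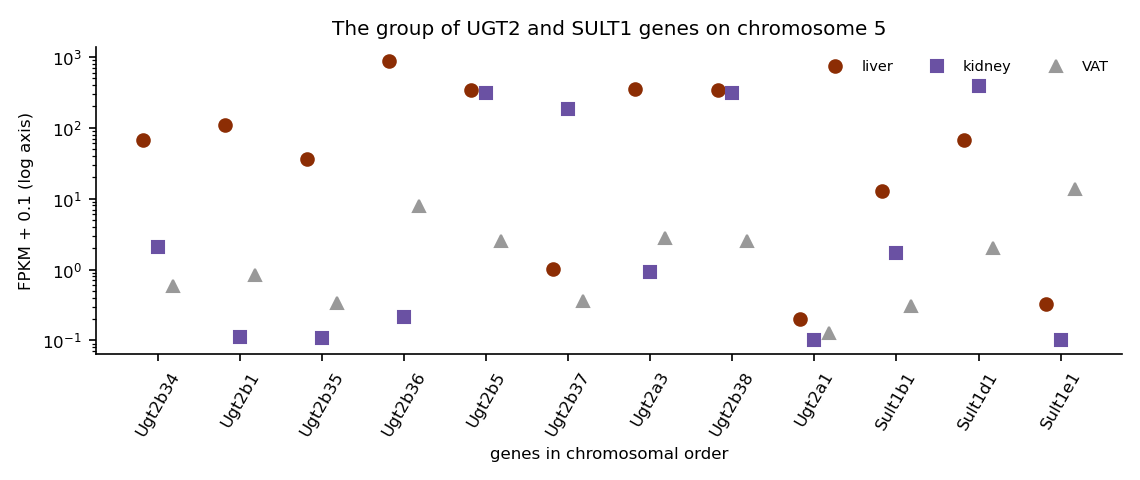
FPKM + 0.1 (log axis) of the 12 genes of the chromosome 5 group in liver, kidney and VAT, in chromosomal order and with 1 library per tissue. Ugt2b35, Ugt2b36, Ugt2b37 and Ugt2a3 are shown at loci on the strand opposite to the gene. Liver is far above kidney at Ugt2b36 (873 against 0.115 FPKM) and far below it at Ugt2b37 (0.901 against 186 FPKM); Ugt2b5 and Ugt2b38 share a locus and so have the same values.

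The Ugt1a genes, of which Ugt1a1 conjugates bilirubin, are alternative first exons joined to common downstream exons on chromosome 1 (chr1:88055388-88220002, GRCm38). All 9 names share 1 locus on the annotated strand in the table. This locus was at 277 FPKM in liver, 139 in kidney, 0.513 in cortex, 1.56 in muscle, 2.199 in BAT, 20.3 in VAT and 4.41 in SCAT. The values belong to the 9 genes jointly, and no first exon can be read from them. Outside liver and kidney this locus was the leading UGT in VAT, SCAT, BAT and muscle.

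A further locus at this place, with the name Ugt1a7c alone, was placed on the strand opposite to the gene. It was at 0.971 FPKM in liver, 279 in kidney, 0.254 in cortex, 1.28 in muscle, 1.09 in BAT, 6.90 in VAT and 3.38 in SCAT. By the highest-value rule it stands for Ugt1a7c and was called enriched in kidney, although the shared locus on the annotated strand was higher in liver than in kidney, by 1.00 on the log2 scale. With loci on the annotated strand only, 4 member loci in place of 5 were enriched in kidney.

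UGT3 enzymes use sugar donors other than UDP-glucuronic acid. Ugt3a2 was at 116 FPKM in liver, 345 in kidney, 0.00975 in cortex, 0.293 in muscle, 0.0583 in BAT, 1.08 in VAT and 0.0440 in SCAT. The locus on the opposite strand that carries the names Ugt3a1 and Ugt3a2 was at 121 FPKM in liver and 191 in kidney. Both were high in liver and kidney and at or near 1 FPKM in VAT. Ugt8a, which makes the galactosylceramide of myelin, was at 9.97 FPKM in kidney, 2.87 in cortex and at most 0.0722 in the other tissues. It was the only UGT locus to reach 1 FPKM in cortex. The locus used for Ugt8a is on the opposite strand, and that on the annotated strand was at 6.28 FPKM in kidney.

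Among the SULTs, Sult2a8, a bile acid sulfotransferase of mouse liver, was at 528 FPKM in liver, 0.0462 in kidney, 0.0885 in cortex, 0.0411 in muscle, 0.0815 in BAT, 2.47 in VAT and 0.0516 in SCAT. Its log2 difference to VAT was 7.68. Sult1d1, which acts on dopamine and other catechols, was at 389 FPKM in kidney, 67.9 in liver, 1.91 in VAT and 0.127 in muscle, and was listed at 0 in cortex, SCAT and BAT. It ranked 58 among protein-coding names in kidney. Sult1c2 was at 36.6 FPKM in kidney, 4.87 in liver, 2.66 in VAT, 0.0909 in cortex and 0.00630 in SCAT, and was listed at 0 in BAT and muscle. The kidney genes thus had liver as their next tissue, 2.52 and 2.88 below on the log2 scale, whereas Sult2a8 did not exceed 2.47 FPKM outside liver.

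Sult1a1, the main phenol sulfotransferase, was the only SULT with at least 1 FPKM in all 7 tissues. It was at 155 FPKM in liver, 8.83 in kidney, 5.48 in cortex, 14.0 in muscle, 18.9 in BAT, 44.0 in VAT and 40.7 in SCAT. It was thus higher in the adipose depots than in kidney, and highest among all members in SCAT. Sult1e1, the estrogen sulfotransferase, was at 13.4 FPKM in VAT, 1.70 in SCAT, 0.0721 in BAT, 0.230 in liver, 0.338 in muscle and 0.0119 in cortex, and was listed at 0 in kidney. The VAT library also held the epididymal genes named above, Crisp1 at 1386 FPKM among them. Their part in the Sult1e1 value was not tested.

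Sult4a1, a sulfotransferase of neurons, was at 22.7 FPKM in cortex, at most 0.0630 in VAT, kidney, SCAT and BAT, and listed at 0 in liver and muscle. Sult2b1, which sulfates cholesterol, reached 2.55 FPKM in cortex and 1.27 in VAT. Sult1b1 (12.8 FPKM) and Sult2a7 (2.47 FPKM) were enriched in liver. The remaining 11 SULT genes, Sult1c1, Sult2a1 to Sult2a6, Sult3a1, Sult3a2, Sult6b1 and Sult6b2, were under 1 FPKM in every tissue. Sult2a1, Sult2a2 and Sult2a6 were listed at 0 in all 7. Several Sult2a and Sult3a genes are known to be expressed mainly in livers of female mice, and the labels do not give the sex of these animals. The study's methods describe its livers of this age for total RNA-Seq as taken from males, without naming the tissue panel. The VAT library held markers of the epididymis, an organ of males, and whether liver came from the same animal is not given.

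GSTs were expressed more evenly. Gstp1, the pi-class enzyme, was at 944 FPKM in liver, 73.8 in kidney, 51.4 in cortex, 123 in muscle, 65.3 in BAT, 59.4 in VAT and 20.4 in SCAT. It was the highest single locus of all members and ranked 47 in liver, though below Ugt2b36 there with the loci of a name summed. Yet Gstp1 was at 20 FPKM or more in every other tissue. Its neighbour Gstp2 was at 40.4 FPKM in muscle and at most 2.85 elsewhere. Gstp1 and Gstp2 share 52.6% and 63.3% of their 101-base windows with another gene, so their split in the table is uncertain. Gstp3 reached 8.65 FPKM in liver.

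Alpha-class GSTs act on lipid peroxides and steroids. Gsta3 shared its locus with Tmem14a, which is no GST. This locus was at 442 FPKM in liver, 30.3 in kidney, 13.2 in cortex, 2.10 in muscle, 3.02 in BAT, 36.6 in VAT and 7.37 in SCAT, and its value and its enrichment in liver cannot be given to Gsta3 alone. Gsta2 was at 89.6 FPKM in kidney, 3.11 in liver and 1.31 in VAT, and 34.8% of its windows occur in another gene. Gsta4, which detoxifies 4-hydroxynonenal, had its highest value in BAT, at 42.5 FPKM, and 21.4 in cortex. Gsta1 stayed under 1 FPKM, with 81.7% of its windows in another gene.

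Mu-class GSTs lie together on chromosome 3. The locus shared by Gstm1 and Gstm3 was at 193 FPKM in liver, 78.8 in kidney, 17.5 in cortex, 53.0 in muscle, 28.3 in BAT, 124 in VAT and 20.2 in SCAT. Gstm5 was at 91.9 FPKM in kidney, 87.8 in cortex, 74.1 in muscle, 47.7 in VAT, 28.9 in BAT, 6.39 in SCAT and 6.23 in liver. Liver was thus its lowest tissue, and kidney and cortex differed by 0.07 on the log2 scale. Gstm2 (68.4 FPKM) and the locus of Gstm6 and Gstm7 (117 FPKM) were highest in VAT. They were 1.97 and 1.66 above the next tissue on the log2 scale, too close for the call. Both passed the rule for VAT when tissues were scaled by median ratio or by upper quartile. Gstm4 did not exceed 4.41 FPKM. The part of epididymal RNA in these VAT values was not tested.

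Of the theta, kappa and omega GSTs, Gstt3 shares a locus with Ddt and Gm20441, and this locus was at 287 FPKM in liver, 90.8 in kidney, 11.1 in cortex, 15.1 in muscle, 199.6 in BAT, 26.2 in VAT and 11.7 in SCAT. Ddt encodes D-dopachrome tautomerase, so the value cannot be given to Gstt3 alone. Without this locus the GST sum was 1936 FPKM in liver, 537 in kidney and 329.5 in BAT. Gstk1, an enzyme of mitochondria and peroxisomes, was at 123 FPKM in liver, 33.1 in kidney, 4.19 in cortex, 31.3 in muscle, 44.1 in BAT, 21.8 in VAT and 8.36 in SCAT. Gstt1 was highest in liver (68.2 FPKM), Gstt2 in kidney (72.0 FPKM) and Gsto1 in BAT (49.5 FPKM). Gsto2 was enriched in BAT at 9.89 FPKM, with at most 1.12 elsewhere. That is its locus on the opposite strand, and on the annotated strand it was at 4.94 FPKM in BAT and 1.24 in SCAT, too close for the call. Gstt4 stayed under 1 FPKM.

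RefSeq promoters, 250 bases before to 50 after each start, were matched for 54 of the 62 members, with 64 entries. The antioxidant response element core TGACNNNGC, searched on both strands, occurred in the promoters of Gsta3, Gstm5 and Gstm7, 3 of the 19 GST genes with a RefSeq promoter (15.8%). It occurred in 12.4% of all 32851 promoters and in 0 of 35 UGT and SULT genes. The first is a share of genes, some with several entries, and the second a share of promoter entries. A match is not a bound site. The 150 bases upstream of Gsta3 and Gstm5 are shown, with the match in capitals, because their loci led in different tissues. The HNF4 repeat CAAAGTCCA was found in 1 member, Sult1b1, and in 0.475% of promoters.
Gsta3 (chr1:21240435-21240584, plus strand): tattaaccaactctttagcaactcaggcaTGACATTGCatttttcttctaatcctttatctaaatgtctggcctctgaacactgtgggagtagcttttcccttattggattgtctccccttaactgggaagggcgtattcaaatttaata
Gstm5 (chr3:107895671-107895820, plus strand): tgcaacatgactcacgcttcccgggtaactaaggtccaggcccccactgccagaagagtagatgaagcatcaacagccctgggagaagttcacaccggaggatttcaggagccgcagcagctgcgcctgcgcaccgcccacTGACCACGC

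Liver and kidney, the main excretory organs, were set against each other over the 35 loci with at least 1 FPKM in either. Liver was at least 4-fold higher at 14 loci, against 8.18% of 11957 protein-coding names. Kidney was at least 4-fold higher at 7 loci, against 10.2%. The other 14 were within 4-fold, and 10 of these were GSTs. Of the 6 SULT loci, 4 leaned to liver, 2 to kidney and 0 were within 4-fold. Ugt2b36 and Sult2a8 leaned to liver by log2 differences of 11.99 and 11.82, with 0.1 FPKM added to each value.

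**Figure D4:**
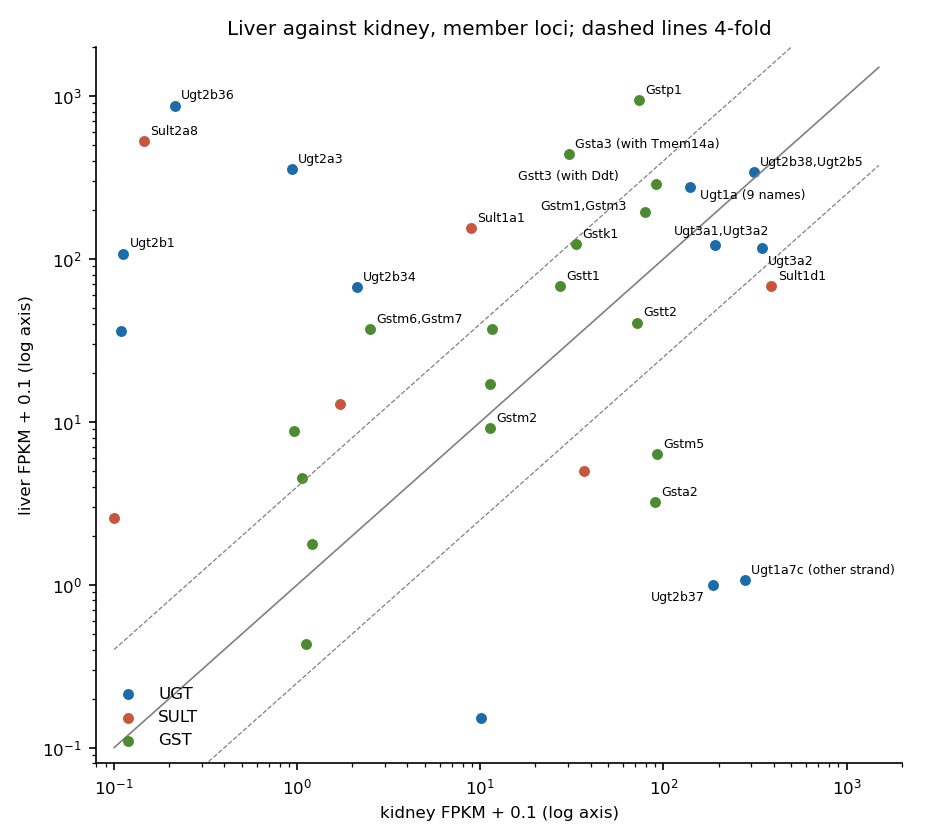
Liver against kidney FPKM + 0.1 on log axes for the 35 member loci with at least 1 FPKM in either (1 library each); colours give the family, the solid line equality and the dashed lines 4-fold. In all, 14 loci lie above the upper dashed line and 7 below the lower one. Of the loci shown, 0 SULT and 4 UGT loci lie between the dashed lines.

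For the 10 liver-enriched loci, VAT was the next tissue in 7. Their VAT values were 0.468% to 8.29% of liver, with a median of 0.823%. Over the 202 liver-enriched protein-coding names at 100 FPKM or more, the median VAT share was 1.10%. Of the 10 loci, 4 were under 100 FPKM in liver. The part of liver RNA in the VAT values was not tested.

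Strand mattered for the UGTs. Strand is not a column of the table and was inferred from how its loci are sorted. The kit was directional, but the library type set in Cufflinks and Cuffdiff is not given in the sources used here. How strand was handled may set the opposite-strand values, and this was not tested. In all, 29 members had loci on both strands. Of the 28 with at least 1 FPKM on the annotated strand, 25 had the same highest tissue on both. The exceptions were Gstt3, Ugt1a7c and Ugt2b5, whose opposite-strand loci led in kidney. For Ugt2b5, that locus, shared with Gm42796, was at 107 FPKM in liver and 255 in kidney. Over the 28 members the value on the opposite strand was 43.6% of the annotated one by median, with a highest of 381%. For 10 members the locus with the highest value, used above, was on the opposite strand: Gstm4, Gsto2, Sult6b2, Ugt1a7c, Ugt2a3, Ugt2b35, Ugt2b36, Ugt2b37, Ugt3a1 and Ugt8a. On the annotated strand Ugt2b36 was at 258 FPKM in liver. Ugt2a3 was at 96.1 FPKM in liver, and Ugt2b37 at 57.8 in kidney and 0.857 in liver. The values used were 339%, 370% and 322% of these for Ugt2b36, Ugt2a3 and Ugt2b37, and the leading tissue was the same on both strands.

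**Figure D5:**
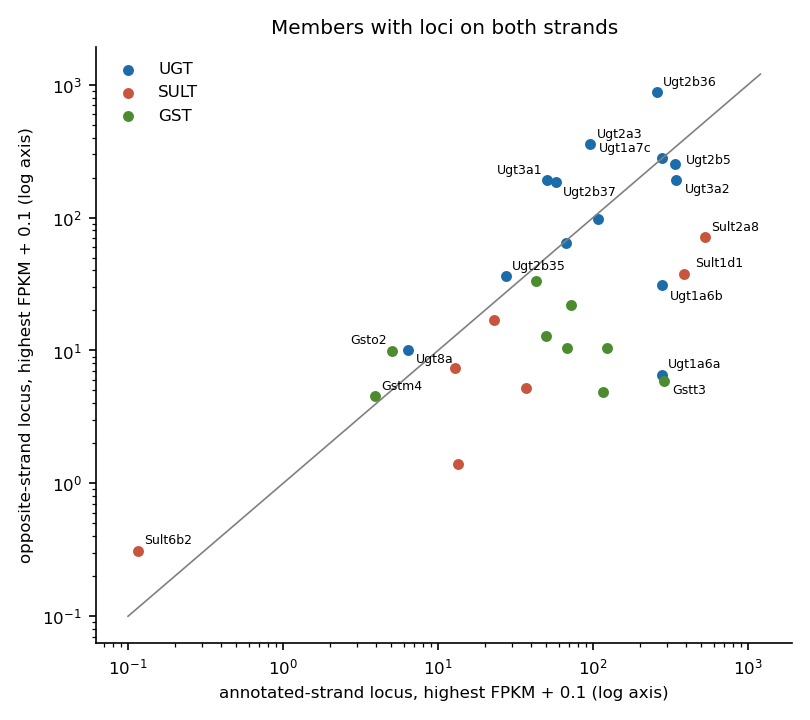
Highest FPKM + 0.1 in any tissue of the locus on the opposite strand against that on the annotated strand (log axes, 1 library per tissue) for the 29 members with both; the line is equality. The 10 members above the line include Ugt2b36, Ugt2a3, Ugt2b37 and Ugt3a1.

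Genes that serve conjugation were counted by the same rule, to be read beside the 21.4% of protein-coding names enriched in some tissue. Of 9 genes for cofactor supply, 2 were enriched: Gss, glutathione synthetase, at 93.3 FPKM in kidney, and Ugp2, which makes UDP-glucose, at 819 FPKM in muscle and 202 in liver. Ugdh, which makes UDP-glucuronic acid, shared a locus with Smim14 and Gm43552, and this locus was at 18.1 to 60.8 FPKM, which cannot be given to Ugdh alone. The PAPS synthase gene Papss1 was at 1.07 FPKM in liver and 15.98 in kidney, and Papss2 at 18.2 and 33.1.

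Of 17 other conjugating enzymes, 3 were enriched: microsomal Mgst1 at 2303 FPKM and the bile acid enzyme Baat at 51.2 FPKM in liver, and Nat8 at 35.2 FPKM in kidney. Gstz1 was at 473 FPKM in liver and 121 in kidney. Of the 5 hydrolases and phase I partners measured, Ephx1, an epoxide hydrolase, was enriched in liver at 106 FPKM, and the highest was Ephx2 at 879 FPKM in liver. Of 4 efflux transporters, Abcc3, which exports glucuronides to blood, was enriched in liver at 103 FPKM, and Abcg2 was highest in kidney at 244 FPKM. Of 8 regulators, the xenobiotic receptors Nr1i2 and Nr1i3 were enriched in liver at 11.9 and 136 FPKM, and Hnf4a was at 207 in liver and 159 in kidney. Nfe2l2, the factor of the antioxidant response element, was within 2.06 to 42.5 FPKM, highest in muscle and lowest in cortex.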

How the data were processed

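RNA-Seq data of 7 mouse tissues, with 1 library per tissue, were analysed from 1 deposited table. According to the labels and the study's methods, rRNA-depleted total RNA was sequenced as directional paired-end libraries. The authors removed adapters with flexbar and rRNA reads with Bowtie2 2.2.9, aligned reads to GRCm38 (Ensembl annotation) with STAR 2.6.0c, and assembled, merged and compared transcripts with Cufflinks 2.2.1. The authors deposited FPKM for 94339 loci in 21 pairwise comparisons. Their log2 fold changes, test statistics, p-values and q-values were not used. The table gives no counts, so depth and precision are unknown, and no test or interval was computed.

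Loci with FAIL status were dropped, LOWDATA zeros were treated as missing, and the locus with the highest FPKM stood for a name. Strand was inferred from the order of loci: 75.3% of 61893 pairs of locus and name, and 99.9% for names with 1 locus, lay on the annotated strand of GENCODE (GRCm38). Tissues were compared on the scale log2(FPKM + 0.1), on which differences of low values are understated. In full were named the 5 highest loci of each family and the highest in each tissue. Promoters were matched to RefSeq for 54 of 62 members, and Gsta4, Gstt2, Sult2a1, Sult2a2, Sult2a7, Sult4a1, Ugt1a6b and Ugt3a2 had no entry. Sts and Acta1 were not analysed here, and 1 gene of the regulator list, beside the 8 counted, is not reported here. The members and lists were chosen with earlier results of these data known. Alternatives covered the pseudocount, scaling, thresholds, status handling and the choice of locus. The enrichment rule was tested on simulated data, namely measured values of genes not enriched, with some raised in liver far above the threshold. This checks the code only. Python 3.11 with pandas was used.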

Additional observations from a re-analysis of the deposited data

How the results depend on the processing

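No paired analysis was possible because each tissue has 1 library and the result comes from no test. With no replicates and no depth, a value was taken as unmoved when it stayed within 1.5 times. Over 15 alternatives the number of enriched member loci ranged from 14 to 27, that in liver from 8 to 14, that in kidney from 3 to 7, and that in the other tissues together from 3 to 6. The kidney count of 3 came from the 8-fold rule. The ratio of liver to kidney sums stayed within 1.45 to 1.89 for UGTs, 1.64 to 1.78 for SULTs and 2.95 to 3.57 for GSTs.

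Family sums and leading shares depended on the choice of locus; the sums were recomputed as an alternative chosen after seeing the data. With FPKM summed over all loci of a name, the UGT sum was 3497 FPKM in liver and 8.11 in cortex, the SULT sum in cortex was 48.2 FPKM, and each leading share stayed within 1.5 times. With loci on the annotated strand only, the UGT sum was 1332 FPKM in liver, 912 in kidney, 2.65 in cortex, 2.50 in muscle, 2.41 in BAT, 28.8 in VAT and 4.60 in SCAT. The leading UGT share was then 25.5% in liver, 37.8% in kidney, 70.4% in VAT, 95.8% in SCAT, 91.3% in BAT and 62.1% in muscle, and 4 loci were enriched in kidney and 3 in the other tissues together, without Ugt1a7c and Gsto2. With loci of several names left out, the UGT sum was 876 FPKM in kidney, 1.92 in BAT, 24.9 in VAT and 4.82 in SCAT, and the GST sum 1271 FPKM in liver, 292 in BAT and 259 in VAT. The leading share was then 39.4% for UGTs in kidney, 74.3% for GSTs in liver and 22.4% for GSTs in BAT. Without the locus that also carries Ddt, an alternative chosen after seeing the data, and with Gstt3 at its opposite-strand locus, the GST sum in BAT was 330.1 FPKM and its leading share 19.8%.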
